A study of Rattus norvegicus with 10 samples.

Results

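A list of 10 genes that mark hepatic stellate cells, and the myofibroblasts they become, was followed across 10 cirrhotic rat livers. These marker genes were taken by name, and all 10 of the 10 listed genes were on the array, among 14217 genes in all, through 13 probe sets that carry a single gene symbol. Where a gene had several such probe sets, the most variable over the 10 arrays was read for it and the others were used as a check. The list holds 4 contractile genes (Acta2, Tagln, Myl9 and Cnn1), both PDGF receptors (Pdgfra and Pdgfrb) and 4 genes of stellate cell identity (Des, Gfap, Reln and Ngfr).

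Stellate cells lie between the sinusoidal endothelium and the hepatocytes, where they store vitamin A while quiescent. In injured liver they can turn into myofibroblasts, which assemble actin stress fibres, contract, divide in response to PDGF and deposit the collagen of the scar. In rodents desmin, the glial protein GFAP and the secreted glycoprotein reelin are used to tell stellate cells from portal fibroblasts, and the neurotrophin receptor p75, encoded by Ngfr, is a further marker of these cells. Smooth muscle actin and the proteins that go with it mark the contractile state.

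The animals were male Wistar rats with cirrhosis from inhalation of CCl4, and no healthy liver was analysed here. The 5 rats of the vehicle group received vehicle once a week, and the 5 rats of the CVX-060 group were injected in the tail vein with CVX-060, which inhibits Ang2, on a weekly schedule of 10 mg/kg over 4 weeks. Ages are not given in the sources used here. The question asked of the markers is whether their level differed after Ang2 inhibition, and how they varied between cirrhotic rats. The sample was RNA of whole liver, so fewer stellate cells and less RNA per cell cannot be told apart. Values are log2 signals, on which a difference of 1 is a doubling.

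Array medians lay between 5.52 and 5.57. After quality control and a principal component plot, the study kept 2 replicates of each treatment for its own analysis. It does not name them, and all 10 arrays were used here. Among the livers, those of vehicle rat 2 and CVX-060 rat 5 were far from the rest on the first principal component of all genes, which held 35.4% of the variance, with scores of 34.5 and 35.5 against -26.2 to 9.74 in the other 8 rats. For each marker that was not below background in all rats, the difference between the groups is therefore given with and without this pair. The background level of an array was the 95th percentile of its 20 probe sets for odorant, pheromone and trace amine receptors, genes which are not known as liver genes, and it lay between 5.34 and 6.06. Of 11 measured hepatocyte markers, 10 were above background in all 10 rats. So were 12 of 15 genes of quiescent stellate cells and 6 of 8 matrix genes of myofibroblasts. Of the 10 markers followed here 4 were, beside 7526 of all 14217 genes.

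No difference between the groups passed a test for any of the 10 markers. In limma's test with Benjamini-Hochberg adjustment, 0 of 10 markers and 0 of all 14217 genes (0%) passed an adjusted p of 0.05, and the lowest adjusted p of any gene was 0.99997. At an unadjusted p under 0.05 there were again 0 of 10 markers, beside 347 of all genes (2.44%), a count that lay between 156, with genes of low signal left out, and 713, without vehicle rat 2, over the refits. The mean was higher with CVX-060 for 6 markers and lower for 4, with differences from -0.10 to 0.33 and a median of 0.03, and 52.6% of all genes were higher with a median of 0.01. For 0 of 10 markers did the rats of the groups stay apart without overlap, where 69 of all genes (0.485%) did. The exact permutation test over the 252 arrangements of the 10 rats, whose smallest possible two-sided p is 0.00794, gave p between 0.333 and 0.976 for the 10 markers. The level also varied between rats of the same group. The SD over the 10 rats had a median of 0.21 for the markers and 0.18 for all genes. It exceeded that of 96.5% of all genes for Tagln, 94.0% for Pdgfrb, 87.8% for Pdgfra and 87.5% for Reln. For the other markers this share lay between 38.8% (Ngfr) and 64.4% (Myl9).

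**Figure D1:**
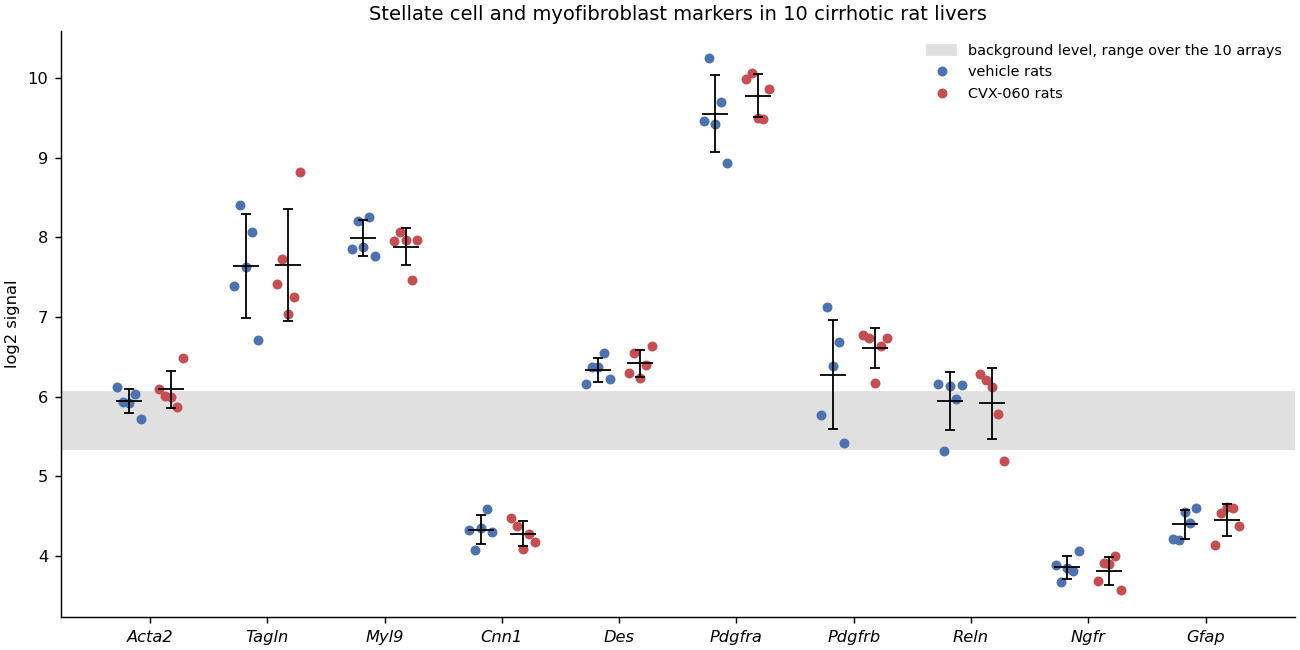
The log2 signal (y axis) of each marker gene (x axis) in 5 vehicle rats (blue) and 5 CVX-060 rats (red), with group means and SDs in black and the range of the background level over the 10 arrays in grey. The groups overlap for every marker, Cnn1, Ngfr and Gfap lie below the background level in all 10 rats, and Tagln spreads over 2.11 log2 units. Signals of different genes come from different probes and cannot be ranked against each other.

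The contractile genes encode parts of the smooth muscle actin apparatus, and many such genes are switched on by the factor SRF and its coactivators through a promoter element called the CArG box. RefSeq promoter windows of build GRCr8, from 250 bases before to 50 after the start of transcription, were at hand for 6 of the 10 markers, namely Acta2, Cnn1, Des, Pdgfra, Reln and Gfap. The 150 bases before the start are shown for Acta2 and Cnn1, the contractile pair among these 6, 5′ to 3′ on the strand of the gene, with CArG-like boxes in capitals. The Acta2 stretch is chr1:241172504-241172653 on the minus strand, and that of Cnn1 is chr8:28908287-28908436 on the plus strand.
Acta2: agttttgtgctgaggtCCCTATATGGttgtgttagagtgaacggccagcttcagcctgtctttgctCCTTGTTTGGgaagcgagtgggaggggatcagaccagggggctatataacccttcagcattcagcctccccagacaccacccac
Cnn1: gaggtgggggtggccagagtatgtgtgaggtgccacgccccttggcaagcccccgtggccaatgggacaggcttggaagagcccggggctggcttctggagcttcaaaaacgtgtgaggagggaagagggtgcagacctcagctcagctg

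The Acta2 window held a pair of CArG boxes with 1 core base G or C, CCCTATATGG and CCTTGTTTGG, which begin 134 and 84 bases before the start. Of all 27457 promoters, 7.95% held at least 1 box of this kind on either strand and 0.524% held 2 or more. Gfap held 1 of them, CCAGAAATGG, which begins 240 bases before the start. The strict CArG box, found in 1.64% of promoters, and TATAAA, found in 14.3%, were in 0 of the 6 windows on either strand. The windows of Cnn1, Des, Pdgfra and Reln held none of the 3 motifs, and the Reln window had a GC content of 79.0%, higher than that of 98.8% of all promoters. These matches describe letters only, since the arrays did not measure binding.

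Acta2, which encodes smooth muscle α-actin, was read by the probe set 1370857_at. Its log2 signal was 6.13, 5.94, 5.92, 6.03 and 5.72 in vehicle rats 1 to 5 and 6.10, 6.01, 5.99, 5.87 and 6.49 in CVX-060 rats 1 to 5. The groups overlapped, with CVX-060 rat 5 highest and vehicle rat 5 lowest. The means were 5.95 ± 0.15 and 6.09 ± 0.24 (SD, n = 5 each), a difference of 0.14 (SE 0.12, exact permutation p = 0.333, limma adjusted p = 0.99997). Without CVX-060 rat 5 the difference was 0.04, without vehicle rat 5 it was 0.09, and without vehicle rat 2 and CVX-060 rat 5 it was 0.04. Although Acta2 is the usual marker of activated stellate cells, this probe set was close to the background level, which it passed in 7 of 10 rats, 3 given vehicle and 4 given CVX-060. It passed the 90th percentile of the receptor probe sets in 10 rats and the 99th in 1. Another 5 probe sets are assigned to both Acta2 and Actc1, the cardiac actin, and are described among the other observations.

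Tagln, which encodes the actin-binding protein transgelin (SM22α), varied most between rats. Its log2 signal was 7.39, 8.41, 7.63, 8.07 and 6.71 in vehicle rats 1 to 5 and 7.41, 7.73, 7.03, 7.25 and 8.82 in CVX-060 rats 1 to 5. The highest and lowest livers differed 4.31-fold, and the SD over the 10 rats, 0.64, was larger than that of 96.5% of all genes. The highest rat of each group was the liver that stood apart on the first component. The means were 7.64 ± 0.65 and 7.65 ± 0.70 (SD, n = 5 each). They differed by 0.01 with a 95% interval from -0.83 to 0.84 (exact permutation p = 0.976), so differences within that interval are not excluded. Without CVX-060 rat 5 the difference was -0.29 and without vehicle rat 2 it was 0.20, and without both it was -0.10.

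Myl9, the regulatory light chain of smooth muscle myosin, varied less than Tagln. Its log2 signal was 7.85, 8.20, 7.87, 8.26 and 7.76 in vehicle rats 1 to 5 and 7.96, 8.06, 7.97, 7.47 and 7.96 in CVX-060 rats 1 to 5. Of all 10 rats, CVX-060 rat 4 was the lowest, and the remaining CVX-060 rats lay within the vehicle range. The difference of the means, 7.99 ± 0.23 and 7.88 ± 0.24 (SD, n = 5 each), was -0.10 (SE 0.14, exact permutation p = 0.532). It was -0.0001 without CVX-060 rat 4, and the omission of 1 vehicle rat moved it to -0.04 (rat 4), -0.05 (rat 2) or -0.16 (rat 5). Without vehicle rat 2 and CVX-060 rat 5 it was -0.07. Cnn1, which encodes calponin 1, an inhibitor of the actin-activated myosin ATPase, was at 4.32 ± 0.18 with vehicle and 4.28 ± 0.15 with CVX-060 (SD, n = 5 each) and below background in all 10 rats, also at the 90th percentile. Its values, from 4.07 to 4.58, are therefore not read as a level of calponin mRNA.

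The PDGF receptors Pdgfra and Pdgfrb are the tyrosine kinases through which PDGF drives division and migration of mesenchymal cells, the β receptor being the one that activated stellate cells are known for. Pdgfra was above background in all 10 rats. Its log2 signal was 9.46, 10.25, 9.43, 9.69 and 8.93 in vehicle rats 1 to 5 and 9.99, 10.06, 9.50, 9.49 and 9.86 in CVX-060 rats 1 to 5. The vehicle rats held both the highest and the lowest liver, 2.50-fold apart, and the CVX-060 rats lay between them. The means were 9.55 ± 0.48 and 9.78 ± 0.27 (SD, n = 5 each), and their difference was 0.23 (95% interval -0.26 to 0.72, exact permutation p = 0.381). It was 0.40 without vehicle rat 2 (limma unadjusted p = 0.0473, adjusted p = 0.911) and 0.07 without vehicle rat 5, and 0.38 without vehicle rat 2 and CVX-060 rat 5.

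Pdgfrb by its most variable probe set, 1370642_s_at, had a similar order of rats. The log2 signal was 5.76, 7.12, 6.39, 6.69 and 5.42 in vehicle rats 1 to 5 and 6.77, 6.74, 6.17, 6.64 and 6.73 in CVX-060 rats 1 to 5. Vehicle rats 1 and 5 were lowest and below background, and vehicle rat 2 was highest. The difference of 0.33 (95% interval -0.31 to 0.98, exact permutation p = 0.357) was the largest of the 10 markers, and it became 0.55 without vehicle rat 2, 0.21 without vehicle rat 1, 0.12 without vehicle rat 5 and 0.52 without vehicle rat 2 and CVX-060 rat 5. Probe set 1370642_s_at was above background in 8 of 10 rats, 1379211_at in 3 and 1391394_s_at in 10. The other probe sets of Pdgfrb did not follow 1370642_s_at. They lay at 5.70 and 5.67 (1379211_at) and at 6.21 and 6.18 (1391394_s_at) in the means of vehicle and CVX-060 rats, each with a difference of -0.03 and with exact permutation p of 0.849 and 0.754. Over the 10 rats the most variable probe set had r = 0.40 and r = 0.26 with these (Spearman rho 0.44 and 0.03, permutation p = 0.257 and 0.466, adjusted p = 0.514 and 0.562 over 4 pairs of probe sets). The values of Pdgfrb therefore depended on the probe set that was read, and for 1370642_s_at and 1391394_s_at the suffix marks probes that may match several transcripts.

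**Figure D2:**
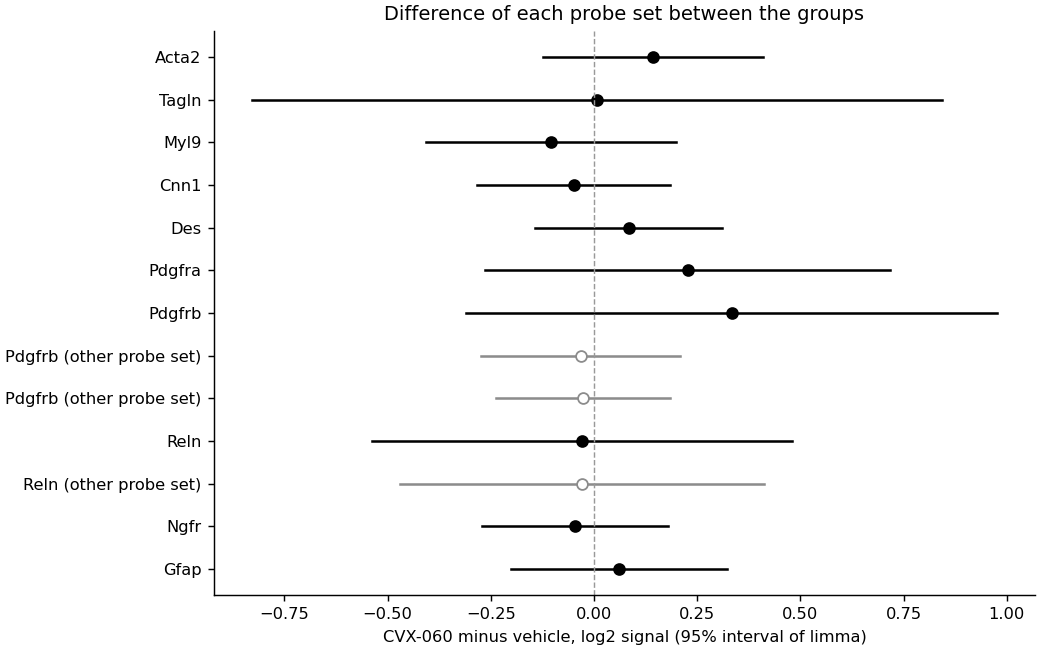
CVX-060 mean minus vehicle mean in log2 signal (x axis, points), with its 95% interval from limma (lines), for each of the 13 probe sets (y axis). Filled black points stand for the probe set of highest variance of a gene and open grey points for its other probe sets. Every interval includes 0, the widest is that of Tagln, and the 3 Pdgfrb probe sets are at 0.33, -0.03 and -0.03.

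Among the identity markers, Des encodes desmin, an intermediate filament of muscle and of stellate cells. Its log2 signal was 6.16, 6.37, 6.37, 6.55 and 6.22 in vehicle rats 1 to 5 and 6.29, 6.54, 6.23, 6.40 and 6.64 in CVX-060 rats 1 to 5, above background throughout. The groups overlapped nearly in full, and the difference of the means, 6.34 ± 0.15 and 6.42 ± 0.17 (SD, n = 5 each), was 0.08 (95% interval -0.14 to 0.31, exact permutation p = 0.405). With 1 rat left out it lay between 0.03, without CVX-060 rat 5, and 0.14, without vehicle rat 4, and it was 0.04 without vehicle rat 2 and CVX-060 rat 5. Vehicle rats 1, 4 and 5 and CVX-060 rats 2, 3 and 5 each moved it by over 1.5 times. Gfap, the glial intermediate filament, was at 4.39 ± 0.19 and 4.45 ± 0.20, and Ngfr at 3.85 ± 0.14 and 3.81 ± 0.18 (SD, n = 5 each). Both were below background in all 10 rats, also at the 90th percentile. Their probe sets thus gave no measurable level of these stellate cell markers in whole liver.

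Reln encodes reelin, an extracellular glycoprotein that stellate cells secrete in the liver. By its more variable probe set, 1369093_at, the log2 signal was 6.16, 5.31, 6.13, 5.97 and 6.14 in vehicle rats 1 to 5 and 6.28, 6.20, 6.12, 5.78 and 5.19 in CVX-060 rats 1 to 5. Vehicle rat 2 and CVX-060 rat 5 were the lowest of all rats, and these and CVX-060 rat 4 were below background. The means were 5.94 ± 0.36 and 5.91 ± 0.45 (SD, n = 5 each), a difference of -0.03 (95% interval -0.54 to 0.48, exact permutation p = 0.881). The difference was 0.15 without CVX-060 rat 5 and -0.19 without vehicle rat 2, and without both it was -0.01. The other probe set, 1373957_at, was above background in all 10 rats and gave the same picture. It was lowest in the same livers, at 8.43 in vehicle rat 2 and 8.14 in CVX-060 rat 5, and reached 9.13 and 9.15 in the highest rats of the groups, with a difference of -0.03 (exact permutation p = 0.897). Over the 10 rats the Reln probe sets had r = 0.96 (Spearman rho 0.90, permutation p = 0.00011, adjusted p = 0.00044), and r = 0.84 without vehicle rat 2 and CVX-060 rat 5. Unlike for Pdgfrb, the probe sets of Reln thus ranked the rats alike.

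To set contractile against identity markers, each gene was centred on its mean over the 10 rats, since levels of different genes cannot be subtracted. The mean of the 4 contractile genes minus the mean of the 4 identity genes was -0.02, 0.43, -0.11, 0.22 and -0.47 in vehicle rats 1 to 5 and 0.05, -0.09, -0.28, -0.31 and 0.59 in CVX-060 rats 1 to 5. The highest liver of each group was again vehicle rat 2 or CVX-060 rat 5, and the groups overlapped over most of their range. The group means were 0.01 ± 0.34 and -0.01 ± 0.36 (SD, n = 5 each), which differ by -0.02, far less than the spread between rats, and by -0.06 without vehicle rat 2 and CVX-060 rat 5. Taken singly, the contractile mean differed by -0.0008, the identity mean by 0.02 and the mean of the PDGF receptors by 0.28. These means include 1 contractile gene and 2 identity genes that were below background in all rats. The receptor mean reads Pdgfrb by 1370642_s_at, whose difference was 0.33, where the other Pdgfrb probe sets differed by -0.03 each.

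**Figure D3:**
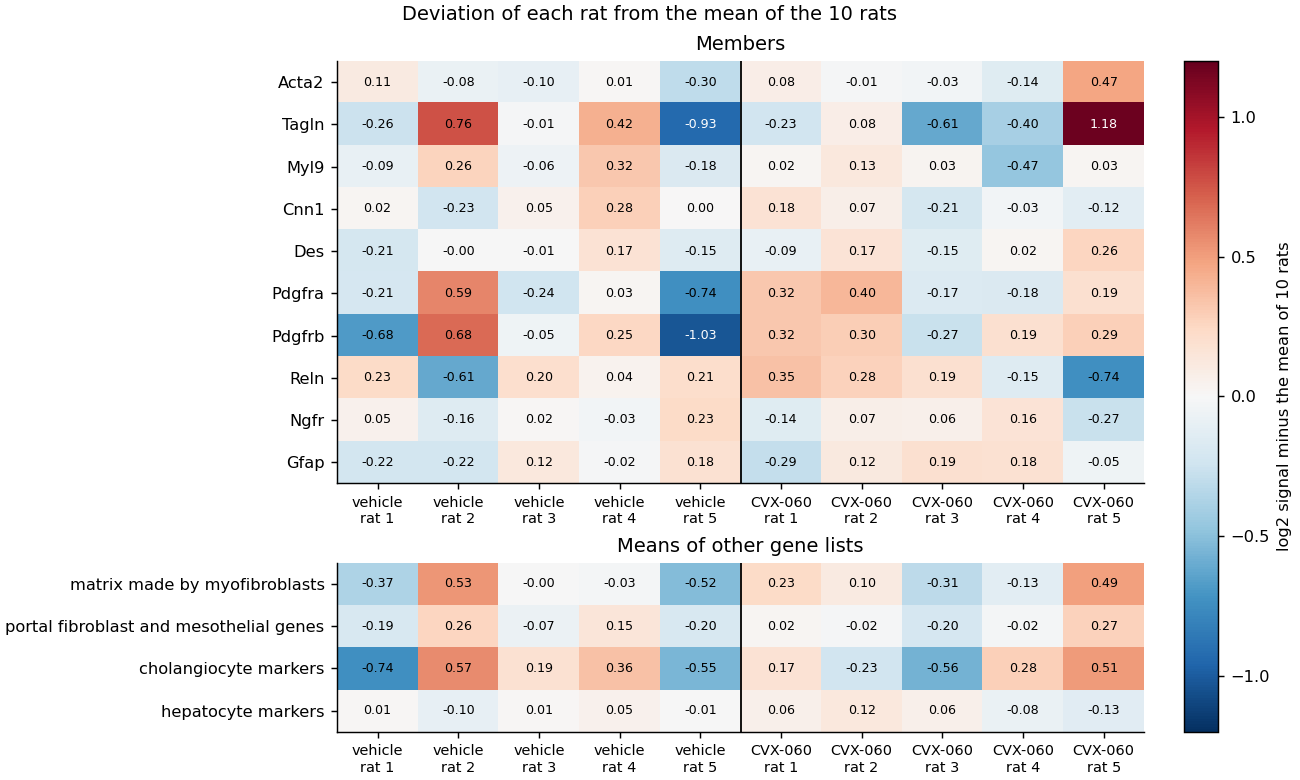
Deviation of each of the 10 rats (columns, vehicle left of the line and CVX-060 right of it) from the mean of the 10 rats in log2 signal, for the 10 markers (upper panel) and for the means of 4 other gene lists (lower panel). Tagln deviates by 0.76 in vehicle rat 2 and by 1.18 in CVX-060 rat 5, where Reln deviates by -0.61 and -0.74, and the PDGF receptors are lowest in vehicle rat 5.

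Correlations over the 10 rats were computed for all 45 pairs of the markers. Only Pdgfra and Pdgfrb passed the adjusted permutation test, with r = 0.89 (permutation p = 0.00021, adjusted p = 0.00945) and Spearman rho = 0.93 (adjusted p = 0.0149). Without vehicle rats 2 and 5, the farthest from the median of Pdgfra, r was 0.69. It was 0.92 within the 5 vehicle rats and 0.72 within the 5 CVX-060 rats. Without vehicle rat 2 and CVX-060 rat 5 it was 0.84 (n = 8, exact permutation p = 0.00434, adjusted p = 0.195), so the call over all pairs was lost with these 8 rats. The relation was seen with the most variable Pdgfrb probe set only, since Pdgfra had r = 0.17 with 1379211_at and -0.04 with 1391394_s_at (permutation p = 0.651 and 0.910, rho 0.26 and -0.07). Of these probe sets, 1379211_at was above background in 3 rats and 1391394_s_at in 10.

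Tagln and Reln went in opposite directions over all rats, with r = -0.77 (permutation p = 0.0114, adjusted p = 0.103) and rho = -0.43. Without vehicle rat 2 and CVX-060 rat 5, which are also the rats farthest from the median of Tagln, r was -0.05, and with the other Reln probe set it was -0.64 over 10 rats and 0.32 over 8. The relation rested on those livers. Within the contractile genes, Acta2 and Tagln had r = 0.70 (permutation p = 0.0248, adjusted p = 0.124, rho 0.52). This r became -0.11 without vehicle rat 5 and CVX-060 rat 5, the farthest from the median of Acta2. It was 0.58 without vehicle rat 2 and CVX-060 rat 5. Tagln and Des had r = 0.76 over 10 rats and 0.76 without the farthest rats (permutation p = 0.0103, adjusted p = 0.103, rho 0.76). Of the 45 pairs, 12 had an unadjusted p under 0.05. The share among pairs of all genes was not computed, so this count is not read as particular to the markers. After the PDGF receptors, the smallest p was that of Tagln and Ngfr (r = -0.84, permutation p = 0.00257, adjusted p = 0.0578). Without vehicle rat 2 and CVX-060 rat 5 their r was -0.61. Acta2 and Ngfr came next (r = -0.78, permutation p = 0.00596, adjusted p = 0.0894). Their r was -0.79 without these livers and -0.30 without vehicle rat 5 and CVX-060 rat 5. Ngfr was below background in all rats, so these values are not read as relations of its mRNA.

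**Figure D4:**
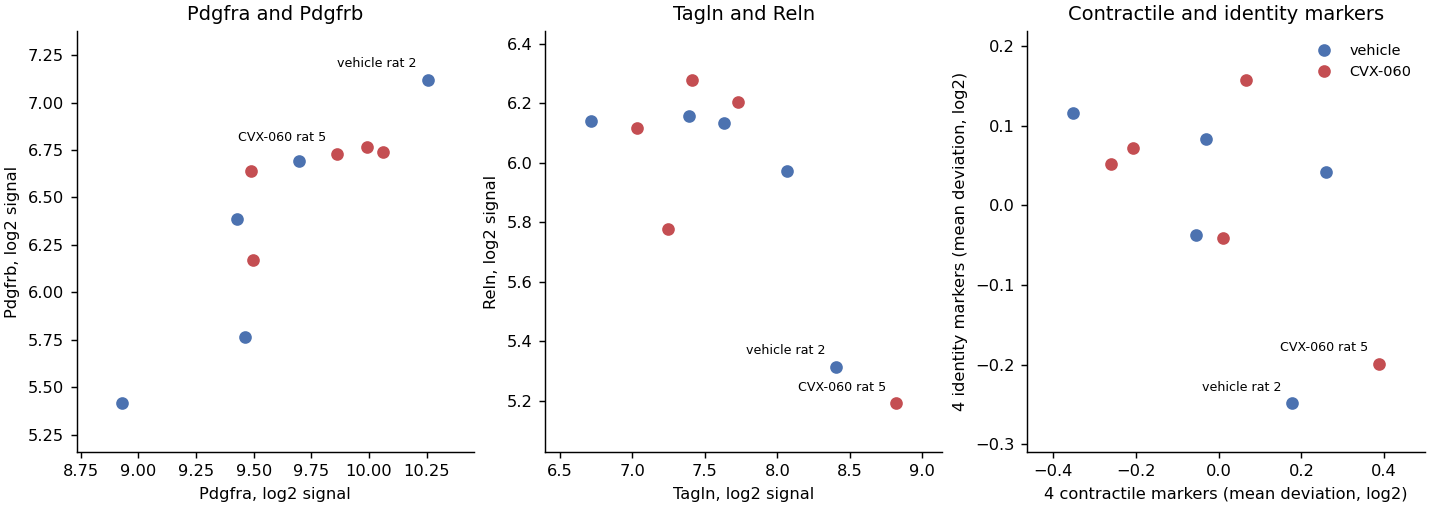
Each point is a rat, blue for vehicle and red for CVX-060, in log2 signal on both axes of the left and middle panels and in mean deviation from the 10 rats on the right. Pdgfra and Pdgfrb rise together (left, r = 0.89), while in the middle panel vehicle rat 2 and CVX-060 rat 5 alone make up the end with high Tagln and low Reln. On the right, the mean of the 4 contractile markers is set against that of the 4 identity markers.

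For each marker above background in all rats, the 5 genes that followed it most closely over the 10 rats, after subtraction of the group means, were sought among 7526 genes above background in all rats. For Tagln these were S100a11 (r = 0.96), which encodes a calcium-binding protein, B4galt6, Kctd12, Igfbp7 and Slc25a4. For Pdgfra they were Setdb1 (r = 0.96), Nedd9, Lamb1, a laminin chain of basement membranes, Add3 and Gng11. Myl9 was followed by Ctsd (r = 0.96), Pctp, Pls3, Plekhm3 and Ptprm, and Des by Yipf4 (r = 0.93), Fmo2, Smad4, Crlf3 and Fhl1. These lists describe likeness over 10 arrays of shared tissue and have no test.

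Genes that work with the markers gave the same account, with 0 genes of any list past the adjusted p. Of 19 measured genes of the smooth muscle contractile apparatus, 11 had a higher and 8 a lower mean with CVX-060 (median difference 0.04). The integrin chain Itga7 had the smallest p, with a difference of -0.23 (SE 0.10, limma unadjusted p = 0.0477), but was below background in all rats. Tagln2, a relative of transgelin, was at 9.46 and 9.73. Of 9 regulators of the SRF and myocardin kind, 7 were higher and 2 lower (median 0.08), and Csrp2, a LIM protein linked to smooth muscle genes and to stellate cells, had the largest difference, 0.85 (SE 0.39, limma unadjusted p = 0.0520, adjusted p = 0.99997, exact permutation p = 0.111), with means of 7.51 and 8.36. Myocd, the smooth muscle coactivator, was below background in all rats, and Mrtfa, its wider expressed relative, was at 6.60 and 6.72.

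Few ligands and partners of the receptors were measurable. Of 3 PDGF ligands and 3 genes of reelin reception 0 were above background in all rats, and of 7 neurotrophin genes 2 were. Of all 14217 genes, 7526 were above background in all rats. Of the PDGF ligands, Pdgfc and Pdgfd were below it in all rats, with differences of -0.13 and 0.13, and Pdgfa was above it in 7 rats with means of 6.20 and 6.21. The neurotrophin genes had 4 higher and 3 lower means (median 0.00), and among them the neurotrophin receptors Ntrk2 and Ntrk3 were below background in all rats. For reelin, the receptor Vldlr was at 6.02 and 6.42 and above background in 6 rats, while its receptor Lrp8 was above it in none and the adaptor Dab1 in 1. Of 4 other intermediate filament genes, 3 were higher and 1 lower (median 0.10), with Synm, which encodes the desmin partner synemin, at 6.08 and 6.36 (exact permutation p = 0.183) and Nes, nestin, at 6.04 and 6.14.

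Of 15 genes of quiescent stellate cells, 8 were higher and 7 lower (median 0.00). Hand2, a transcription factor of these cells, was at 6.89 and 7.05 and Fcna, a ficolin, at 8.25 and 8.43. Nt5e went the other way, at 10.11 and 9.98. Of 8 matrix genes of myofibroblasts, the mean was higher for 7 and lower for 1 (median 0.16). Col3a1, the chain of type III collagen, was at 11.75 and 11.92 (exact permutation p = 0.381), Col1a2, a chain of type I collagen, at 8.22 and 8.50 (p = 0.468, exact), and Timp1, an inhibitor of matrix metalloproteinases, at 7.80 and 8.07 (p = 0.50, exact). None of these differences was larger than the spread between rats.

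Markers of other cells varied between rats too, and their part in the values of the 10 markers was not tested. The mean deviation of 5 cholangiocyte markers was -0.74 and -0.55 in vehicle rats 1 and 5 and -0.56 in CVX-060 rat 3, and 0.57 and 0.51 in vehicle rat 2 and CVX-060 rat 5. That of the 8 matrix genes was -0.37, -0.52 and -0.31 in the former and 0.53 and 0.49 in the latter. The former 3 livers were thus low and the latter pair high in Tagln, the mean of the PDGF receptors, matrix and cholangiocyte genes alike, but other livers went apart. CVX-060 rat 4 was at 0.28 for the cholangiocyte markers, at -0.40 for Tagln and at -0.13 for the matrix genes, and CVX-060 rat 2 was at -0.23 for the cholangiocyte markers, at 0.35 for the PDGF receptors and at 0.10 for the matrix genes. The list mean of the cholangiocyte markers ranged from 5.27 to 6.58 with vehicle and from 5.44 to 6.52 with CVX-060, where Epcam was above background in 10 rats, Krt19 in 5 and Cftr in 0. The list mean of 11 hepatocyte markers stayed between 11.63 and 11.78 with vehicle and between 11.60 and 11.86 with CVX-060.

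Of 8 genes of pericytes and vascular smooth muscle, 3 were higher and 5 lower (median -0.03, list means from 5.82 to 5.91 with vehicle and from 5.72 to 6.01 with CVX-060), and the potassium channel subunit Abcc9 was at 7.57 and 7.31 (exact permutation p = 0.103). Of 10 genes of portal fibroblasts and mesothelium, 6 were higher and 4 lower (median 0.03), and 1 of them was above background in all rats. Of 4 glia and Schwann cell genes, 2 were higher and 2 lower (median -0.02), with Sox10 and S100b below background in all rats and Mbp, a myelin gene, higher by 0.39 in the mean (exact permutation p = 0.0556). Of 7 lymphocyte markers, 5 were higher and 2 lower (median 0.02), and 6 of them were above background in no rat.

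All 9 sinusoidal endothelial markers had a higher mean with CVX-060 (median 0.32), as did all 9 macrophage markers (median 0.27), beside 52.6% of all genes. Of either list, 0 genes passed the adjusted p. Genes of a list were read in the same livers, so these counts are not independent results. The mean deviation of the endothelial list was lowest in vehicle rat 3 (-0.54), and that of the macrophage list was highest in CVX-060 rat 5 (0.58). CVX-060 rat 4 was at -0.14 and -0.34 in these lists. List differences without single rats were not computed. The list mean of the endothelial markers ranged from 7.86 to 8.48 with vehicle and from 8.27 to 8.74 with CVX-060, and that of the macrophage markers from 8.90 to 9.39 and from 8.93 to 9.85. Lyve1, a hyaluronan receptor of these endothelial cells, was at 10.13 and 10.57 (limma unadjusted p = 0.0162, adjusted p = 0.99997). The median difference was 0.03 for the 10 markers of stellate cells and 0.00 for the genes of quiescent stellate cells, and differences between lists were not tested.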

How the data were processed

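RNA of whole liver from 10 rats was hybridised to an Affymetrix Rat Genome array for each rat, with 150 ng per sample. The values deposited by the authors are log2 signals per probe set that were normalised between arrays. Of tools, limma 3.38.2, affy 1.56.0 and R 3.4.0 are listed in the processing notes of the submitters. Their background correction and summary method are not given in the sources used here, and no further normalisation was applied. Scanner files and healthy livers were not analysed here.

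Of 31099 probe sets, 57 controls were dropped, as were 9780 with no symbol and 436 that name more than 1 gene, and symbols of 20758 of the remaining 20826 were updated by gene ID through the RefSeq gene table. Each of 14217 genes was represented by its most variable probe set, after the study's methods. Groups were compared by lmFit and eBayes of limma 3.58.1 under R 4.3.3, adjusted over all genes after Benjamini and Hochberg, and single genes also by an exact two-sided permutation test of the difference in means. Correlations had permutation p from 100000 resamples, or exact p for 8 rats. Other steps ran in Python 3.11.15 (scipy 1.17.1, numpy 2.4.6, matplotlib 3.10.9, pandas 2.3.3). The limma fit was checked on simulated data, and the exact test of the difference in means on constructed values.

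The members and lists were chosen with earlier results of these data known. Named genes are all members with their probe sets, up to 3 genes of each other list by the smallest unadjusted p, and the 5 genes most like each member above background. The 20 background probe sets were taken by symbol and include Olr1, also the symbol of the oxidised LDL receptor. Each rat is a separate animal, and the labels do not say that rats of the same number are paired. The deviations of such rats from their group means had correlations between -0.17 and 0.15. Such values cannot decide whether the numbers pair rats. Alternatives were other probe set rules, a filter on low signal, quantile normalisation, array medians at 0, array weights, a trended robust prior, the replicate block, each rat left out, both rats that stood apart left out, and other background percentiles. The number of arrays limits the precision.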

Additional observations from a re-analysis of the deposited data

Results flagged for a closer look

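In 28 groups of 5 rats that were checked, made up of the 10 markers, the contractile, receptor and identity means and the contractile minus identity value in each treatment, 3 rats lay far from the other 4 by Dixon's test, and chance marks about 1 group in 20. Myl9 in CVX-060 rat 4 was at 7.47, where the other 4 CVX-060 rats lay between 7.96 and 8.06. Pdgfrb in CVX-060 rat 3 was at 6.17, where the others lay between 6.64 and 6.77. Reln in vehicle rat 2 was at 5.31, where the others lay between 5.97 and 6.16, and this liver is among the pair that stood apart over all genes.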

How the results depend on the processing

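Under all 19 refits of limma, 0 genes passed the adjusted p, with or without a fold of over 1.5. This holds for the replicate block too (0 genes, 6 members higher, 389 genes at an unadjusted p under 0.05 against 347 without it). Over the refits the count at an unadjusted p under 0.05 lay between 156 and 713. The number of members higher lay between 5 and 7, on unlike totals. With every single-symbol probe set it was 6 of 13 probe sets. With low signals left out it was 5, and Cnn1, Ngfr and Gfap were not in that fit. The contractile minus identity difference lay between -0.17 and 0.09 when 1 rat was left out. Of 180 refitted differences of single members, 162 kept their direction, and 1 had an unadjusted p under 0.05. With array weights the differences of Tagln, Reln and Gfap turned to -0.0032, 0.0316 and -0.02, and without vehicle rat 2 and CVX-060 rat 5 that of Tagln to -0.10. The other Pdgfrb probe sets gave -0.0323 and -0.0268. With 1 rat left out, Acta2 ranged from 0.04 to 0.20, Myl9 from -0.16 to -0.0001, Des from 0.03 to 0.14, Pdgfra from 0.07 to 0.40, Pdgfrb from 0.12 to 0.55 and Gfap from 0.01 to 0.14, and Tagln ranged from -0.29 to 0.20, Reln from -0.19 to 0.15, Cnn1 from -0.11 to 0.0154 and Ngfr from -0.0914 to 0.0155. The pairs of members past the adjusted permutation test, 1 as reported, were 0 without vehicle rat 2 and CVX-060 rat 5 and 2 with array medians set to 0. There Tagln and Ngfr were added (r = -0.88), though Ngfr was below background in all rats. The members above background in all rats, 4 here, were 7 at the 90th and 2 at the 99th percentile, and 4 with Or symbols added and Olr1 left out, a choice made after seeing the data. The cause of these changes was not tested.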

Other observations

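A further 5 probe sets are assigned to both Acta2 and Actc1 and were left out of the comparison. They had means between 3.76 and 5.75, with differences from -0.15 to 0.05, and 1 of them (1370856_at) was above background in 3 rats and the others in 0. The smallest exact permutation p among them was 0.0714.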
